A study of Mus musculus with 4 samples.

Results

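The genes described here are 10 of the 21937 features counted in the series: Mybpc1, Asic2, Prkcb, Pax3, Runx2, Tex15, Aspscr1, Phlda1, Armh4 and Pglyrp1. They were selected on their measured levels, as genes high in tdTomato-positive cells of the gof libraries and nearly absent from tdTomato-positive cells of the control libraries. The rule gave no numerical limit, and the working name for the set called the genes ectopic. The data went against that name for most of them: Mybpc1 at E11.5 was the 1 case with at least 20 CPM (the UMIs of a gene scaled to the total of the same cells) in gof and under 2 CPM in control reporter cells, and the other genes had from 1.68 CPM (Pglyrp1) to 49.5 CPM (Tex15) in control reporter cells at that age. They are therefore called the gof-high reporter genes below.

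Cells came from the midline of the embryonic mouse telencephalon, around the cortical hem, and were profiled with 10x Chromium 3' single-cell RNA sequencing. The gof embryos were Lmx1aCre::Ai9::b-cat gof and the control embryos Lmx1aCre::Ai9, at E11.5 and at E14.5. Both genotypes carried Lmx1aCre, which is active where the Lmx1a promoter is or has been active, and the Ai9 reporter, from which Cre switches on tdTomato. The gof embryos carried in addition the beta-catenin allele, whose altered part the labels do not name. Each of the 4 libraries was 1 pool of male embryos, 5 embryos at E11.5 and 3 at E14.5, with both hemispheres, so no comparison has a replicate. Differences between gof and control are differences between 2 libraries, the intervals describe counting error alone, and there is no p-value. Because the levels in reporter cells chose the genes, gof and control reporter cells are compared as a description.

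Beta-catenin is the transcriptional mediator of canonical Wnt signalling: when it is not degraded it enters the nucleus, binds Tcf and Lef factors and activates targets, among them feedback inhibitors such as Notum, a secreted enzyme that removes the lipid that Wnt proteins need for activity. The cortical hem is a Wnt- and BMP-secreting edge of the cortex from which Cajal-Retzius neurons arise, and it lies beside the choroid plexus. The 10 genes have no common pathway: Mybpc1 encodes the slow-type myosin-binding protein C of skeletal muscle, Asic2 a proton-gated sodium channel subunit, Prkcb a conventional protein kinase C, Pax3 a transcription factor of the dorsal neural tube and neural crest, Runx2 the osteoblast transcription factor, Tex15 a protein of male germ cells, Aspscr1 a tether of glucose transporter vesicles, Phlda1 a pleckstrin homology-like protein, Armh4 a membrane protein with an armadillo-like helical domain, and Pglyrp1 a secreted protein that binds bacterial peptidoglycan.

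The 25457 kept cells were 7024 in E11.5 gof, 6510 in E11.5 control, 5317 in E14.5 gof and 6606 in E14.5 control, with median depths of 5644, 8172.5, 14072 and 12885.5 UMIs per cell. A cell was called tdTomato-positive with 2 or more tdTomato UMIs and negative with 0. Positive cells numbered 294 in E11.5 gof (4.19%), 563 in E11.5 control (8.65%), 1043 in E14.5 gof (19.6%) and 1110 in E14.5 control (16.8%). Their median depths were 9688, 13508, 15904 and 13621 UMIs. The E11.5 control positives included 44 cells in the erythroid gate, and without the non-neural gates 8 of the 10 genes were called higher in gof at E11.5, as with them. The libraries shared 82 barcode sequences, and leaving those out also gave 8. Lmx1a, the gene whose promoter drives Cre, was at 58.0 CPM in gof, against 93.1 CPM in control reporter cells at E11.5, and at 71.6 and 225 CPM at E14.5. Ctnnb1 was at 337 CPM in gof, against 314 CPM in control at E11.5 and at 382 and 336 CPM at E14.5, which does not check the allele, because counting at the 3' end does not show which part of the gene was altered. Reln and Trp73, markers of Cajal-Retzius neurons, were lower in gof than in control reporter cells at E14.5, at 66.8 against 959 CPM and at 6.05 against 100.2 CPM. Ttr, which marks choroid plexus, was at 2533 CPM in gof, against 13720 CPM in control. Fewer cells of a type and less RNA per cell cannot be told apart from these pooled levels, and their part in the results was not tested beyond the levels within marker gates given below.

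Mybpc1 (chr10:88518279-88605152, minus strand, GRCm38) was close to absent from the E11.5 control library. Its summed level was 73.1 CPM in gof reporter cells (95% Poisson interval 64.5 to 82.5, 262 UMIs), against 0.105 CPM in control reporter cells (1 UMI), a ratio of 696 with an exact interval of 124 to 27590. By E14.5 it reached 512 CPM in gof reporter cells and 12.3 CPM in control reporter cells, a ratio of 41.6 (36.7 to 47.4). Among reporter-negative cells it was at 4.89 CPM in gof, against 0.240 CPM in control at E11.5, and at 8.73 CPM in gof, against 33.6 CPM in control at E14.5. The E14.5 gof library thus had the most Mybpc1 in its reporter-positive cells and less than control in its reporter-negative cells. After each cell was thinned to 3000 UMIs, Mybpc1 was detected in 14.9% of 275 gof and in 0 of 559 control reporter cells at E11.5, where 0 allows up to 0.537%, and in 46.7% of gof and 2.71% of control reporter cells at E14.5. Without thinning the shares were 27.6% of gof and 0.178% of control cells at E11.5, and 57.0% and 8.29% at E14.5.

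Asic2 (chr11:80880169-81968457, minus strand) did not have the pattern at E11.5. It was at 29.6 CPM (24.2 to 35.8) in gof and 30.7 CPM (27.2 to 34.4) in control reporter cells, and the intervals overlapped. At E14.5 the levels were 946 CPM in gof, against 146 CPM in control reporter cells, a ratio of 6.47 (6.22 to 6.73), with 24.7 and 31.0 CPM in reporter-negative cells. It was detected in 53.0% of thinned gof reporter cells and in 23.9% of control reporter cells at that age. Nearly 1 in 4 control reporter cells therefore carried an Asic2 UMI, so the gene was not absent from the control lineage.

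Prkcb (chr7:122288751-122634402, plus strand) was at 18.1 CPM (13.99 to 23.1) in gof and 11.02 CPM (9.02 to 13.4) in control reporter cells at E11.5. It was detected in 2.91% of thinned gof cells and 3.40% of thinned control cells, so the shares gave the opposite order to the CPM and no order is read at that age. The E14.5 levels were 245 CPM in gof, against 25.1 CPM in control reporter cells, a ratio of 9.75 (8.89 to 10.7). In reporter-negative cells it was at 14.6 CPM in gof, against 7.33 CPM in control.

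The transcription factor genes were both expressed in control reporter cells. Pax3 (chr1:78101267-78197134, minus strand) was at 55.2 CPM in gof, against 22.4 CPM in control reporter cells at E11.5, a ratio of 2.47 (2.03 to 3.01). The E14.5 levels were 17.8 CPM in gof, against 2.56 CPM in control reporter cells, and at 0.218 and 0.345 CPM in reporter-negative cells. Pax3 was thus the 1 gene of the set with a lower CPM at E14.5 than at E11.5 in gof reporter cells. Runx2 (chr17:44495987-44814797, minus strand) was at 42.7 CPM in gof, against 5.15 CPM in control reporter cells at E11.5, a ratio of 8.29 (5.98 to 11.7). At E14.5 it was at 98.1 CPM in gof, against 13.2 CPM in control reporter cells, a ratio of 7.43 (6.53 to 8.48), so its ratio was alike at both ages while both levels were higher at the later one.

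Tex15 (chr8:33516738-33585582, plus strand) was at 109 CPM in gof, against 49.5 CPM in control reporter cells at E11.5, a ratio of 2.20 (1.92 to 2.52). The later levels were 213 CPM in gof, against 15.5 CPM in control, a ratio of 13.7 (12.2 to 15.4). The gof level was higher and the control level lower at E14.5 than at E11.5. Aspscr1 (chr11:120672973-120709447, plus strand) was at 100.4 CPM in gof, against 22.9 CPM in control reporter cells at E11.5. At E14.5 it was at 124 CPM in gof, against 32.4 CPM in control. Its ratios were 4.39 (3.70 to 5.22) and 3.82 (3.50 to 4.17), and its level in reporter-negative cells lay between 18.8 and 29.2 CPM in all 4 libraries.

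Phlda1 (chr10:111506286-111508645, plus strand) was at 68.1 CPM in gof, against 15.6 CPM in control reporter cells at E11.5, and at 178 and 28.7 CPM at E14.5. In reporter-negative cells it was at 25.5 CPM in gof, against 12.8 CPM in control at E11.5, and at 29.2 and 41.0 CPM at E14.5, so control reporter cells at E14.5 had less Phlda1 than the reporter-negative cells of their own library. Armh4 (chr14:49675952-49783383, minus strand) was at 54.4 CPM in gof, against 18.9 CPM in control reporter cells at E11.5, and at 187 and 27.0 CPM at E14.5. Among reporter-negative cells at E14.5 it was at 13.5 CPM in gof, against 21.2 CPM in control. Pglyrp1 (chr7:18871331-18890459, plus strand) was near the counting limit at E11.5, with 8 UMIs in gof and 16 UMIs in control reporter cells (2.23 and 1.68 CPM). The later levels were 122 CPM in gof, against 3.97 CPM in control reporter cells, a ratio of 30.7 (24.5 to 38.9), although it was detected in 9.56% of thinned gof reporter cells and 0.813% of control ones.

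**Figure D1:**
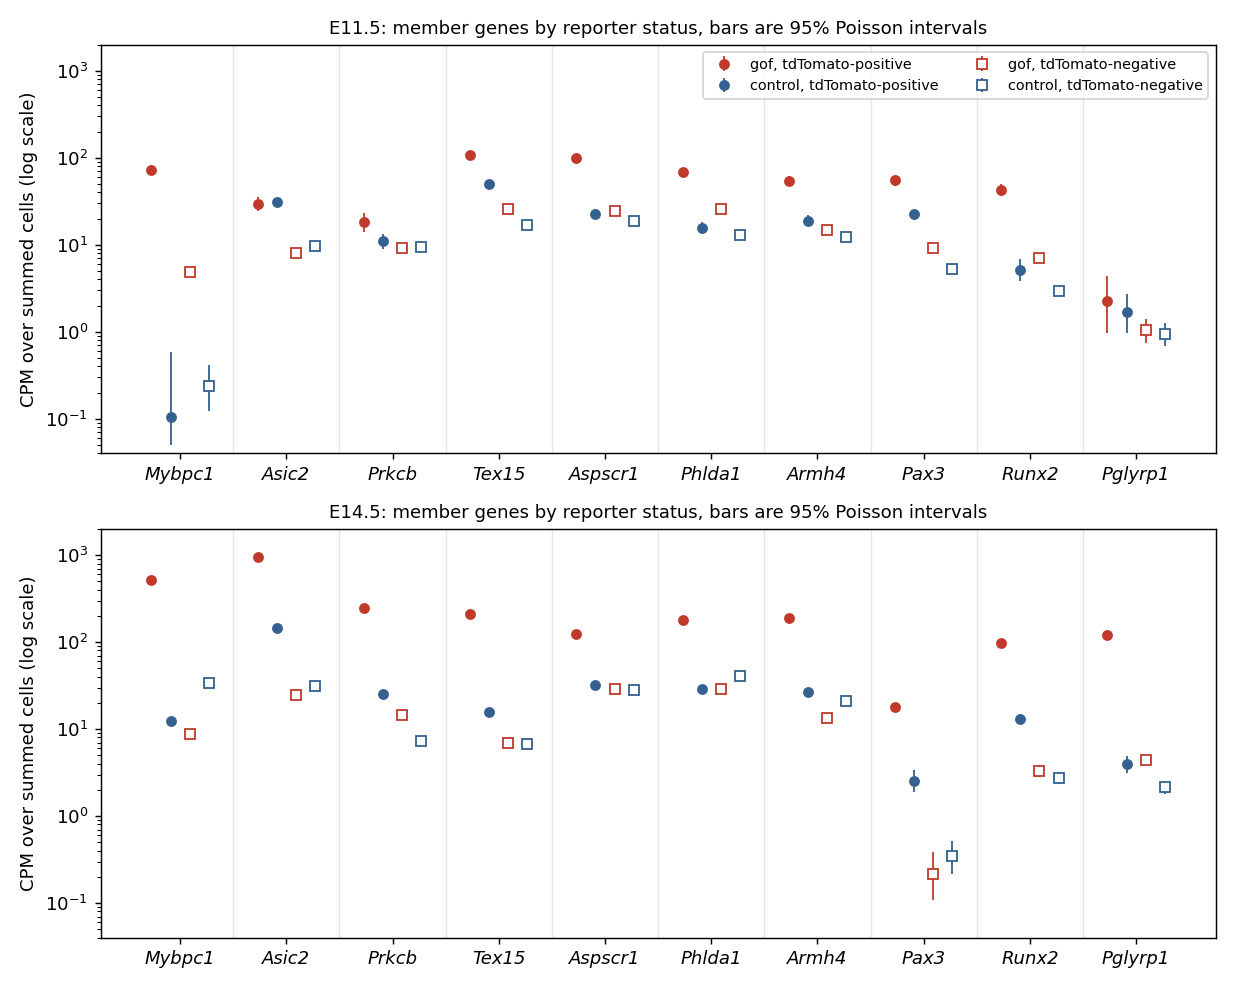
Summed level of each of the 10 genes (CPM, log axis) in gof (red) and control (blue) libraries, with filled circles for tdTomato-positive and open squares for tdTomato-negative cells; bars are 95% Poisson intervals. At E14.5 each of the 10 genes is higher in gof than in control tdTomato-positive cells, while Mybpc1 in tdTomato-negative cells is lower in gof (8.73 CPM) than in control (33.6 CPM).

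A gene was called higher or lower when it differed by at least 1.5-fold, on CPM with 1 CPM added, with separate 95% intervals, among genes with at least 10 CPM in either library. In E11.5 reporter cells 8 of the 9 genes that passed this minimum were called higher in gof, where 4.68% of all 8692 genes tested were, and Asic2 was not; Pglyrp1 was under the minimum. The 8 include Prkcb, whose shares gave the opposite order and whose call was lost under 6 of 14 other settings, with log2 ratios of 0.41 to 0.69. Mybpc1 was the 1 gene of the set among the 0.138% of genes higher by at least 8-fold, and its log2 ratio of 6.07 ranked 1 of 8692. At E14.5 all 10 genes passed the minimum and were higher in gof, where 6.84% of 10238 genes were. Mybpc1, Pglyrp1, Tex15 and Prkcb were among the 0.508% higher by at least 8-fold. As these counts follow from how the genes were chosen, nothing is read from them. The 10 genes had a median log2 ratio of 2.78 at E14.5, against a median of -0.12 over all genes tested, and the 9 genes one of 1.48 at E11.5, against -0.09.

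The contrast in reporter-negative cells was not used by the rule. At E11.5, 4 of the 10 genes reached 10 CPM there; Phlda1 was called higher in gof, where 4.33% of 8318 genes were higher, and none of the 4 was called lower, where 3.77% of genes were. Under the minimum, Mybpc1 (4.89 CPM in gof, against 0.240 CPM in control), Runx2 (7.09 and 2.96 CPM) and Pax3 (9.13 and 5.25 CPM) were also higher in gof by the same fold and interval rule. At E14.5, 6 of the 10 genes reached 10 CPM. Prkcb was called higher in gof (14.6 against 7.33 CPM), where 2.11% of 9473 genes were higher, and Mybpc1 and Armh4 were called lower, where 7.28% were lower. In reporter-negative cells at E14.5 the called genes thus went in both directions. With 1 library per genotype, differences of library and of genotype cannot be told apart. Cells with 1 tdTomato UMI, in neither class, had 6 of 9 genes called higher in gof at E11.5, where 5.27% of all genes were, and 2 of 8 (Prkcb and Pglyrp1) at E14.5, where 3.34% were.

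Most of the UMIs of these genes in the E14.5 gof library sat in reporter cells, which were 19.6% of its cells. The share was 93.7% for Mybpc1, 90.6% for Asic2, 97.0% for Pax3, 89.7% for Runx2, 89.4% for Tex15 and 87.1% for Pglyrp1, and it was lowest for Aspscr1, at 56.7%. In the E14.5 control library, where reporter cells were 16.8%, the corresponding shares were 8.31% for Mybpc1, 51.4% for Asic2, 63.8% for Pax3, 51.6% for Runx2, 36.0% for Tex15, 32.5% for Pglyrp1 and 22.8% for Aspscr1. In control, Mybpc1 was thus scarcer in reporter cells than their share of the library, and Asic2, Pax3 and Runx2 were more concentrated there. At E11.5 most UMIs of each gene of the set in the gof library lay outside reporter cells, which were 4.19% of its cells. The share in reporter cells ran from 12.3% (Pglyrp1) to 45.3% (Mybpc1), with 29.5% for Runx2, 21.7% for Tex15 and 19.3% for Asic2. In that library 670 cells had 1 tdTomato UMI, and tdTomato-negative cells had a median of 5517.5 UMIs. Whether tdTomato-negative cells lay outside the Lmx1a lineage was not tested.

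As a reading of free RNA, tdTomato-negative cells of the non-neural gates were examined. Of all non-neural-gated cells, 18.2% in E14.5 gof and 8.03% in E14.5 control were tdTomato-positive, and 18.8% and 15.3% had 1 UMI. Leaving these out can make the reading low, and 2 UMIs alone do not place a cell in the Lmx1a lineage. In 33 myeloid-gated E14.5 gof cells of any status Mybpc1 was at 54.9 CPM, from 2 cells, and Asic2 at 94.05 CPM, from 4 cells. The tdTomato-negative non-neural cells of the E14.5 gof library were 107, with a median of 15223 UMIs, against 15904 UMIs in its reporter cells. After thinning, 0.971% of them had a Mybpc1 UMI, and 0 of 103 had an Asic2, Pax3 or Notum UMI, which allows up to 2.91%. The gof reporter shares of 46.7% for Mybpc1 and 53.0% for Asic2 were far above these shares of tdTomato-negative cells. For Pglyrp1 the share was 0.971%, for Runx2 1.94%, for Tex15 3.88%, for Armh4 7.77% and for Aspscr1 10.7%. These were all below the gof reporter shares of 9.56%, 23.2%, 33.5%, 29.3% and 24.9%. Some non-neural gates of control expressed Tex15, Armh4, Phlda1, Prkcb or Pglyrp1, so for these genes the non-neural share is no reading of free RNA; it was 34.0% for Phlda1 and 14.6% for Prkcb in gof. In the E14.5 control library the 105 such cells had a median of 11190 UMIs, against 13621 UMIs in reporter cells. Asic2 was in 23.9% of control reporter cells and 2.02% of the non-neural ones. The control reporter shares of Mybpc1 (2.71%) and Pax3 (0.271%) lay within the 3.03% that 0 of 99 non-neural cells allows.

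Several of the genes were detected in the same gof reporter cells. They were chosen as high in these cells, so more of them per gof than per control reporter cell follows from the choice. The numbers are a description, and none expected from the shares of single genes was computed. At E14.5 a thinned gof reporter cell carried UMIs of a median of 3 of the 10 genes, and a control reporter cell of 1. In gof 53.3% of 1036 cells had 3 or more of the genes (50.2 to 56.4%), against 2.44% of 1107 control cells (1.61 to 3.53%). Cells with 5 or more made up 31.5% in gof and 0 of 1107 in control, with an exact upper limit of 0.333%. At E11.5, 3 or more were found in 16.7% of gof and 1.252% of control reporter cells. In reporter-negative cells 5 or more were found in 0.146% of gof cells at E11.5, in 0.244% of gof and 0.0231% of control cells at E14.5, and in 0 of 5149 control cells at E11.5. At the same time 23.8% of gof reporter cells at E14.5 had none of the genes, so the reporter-positive population was not uniform.

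**Figure D2:**
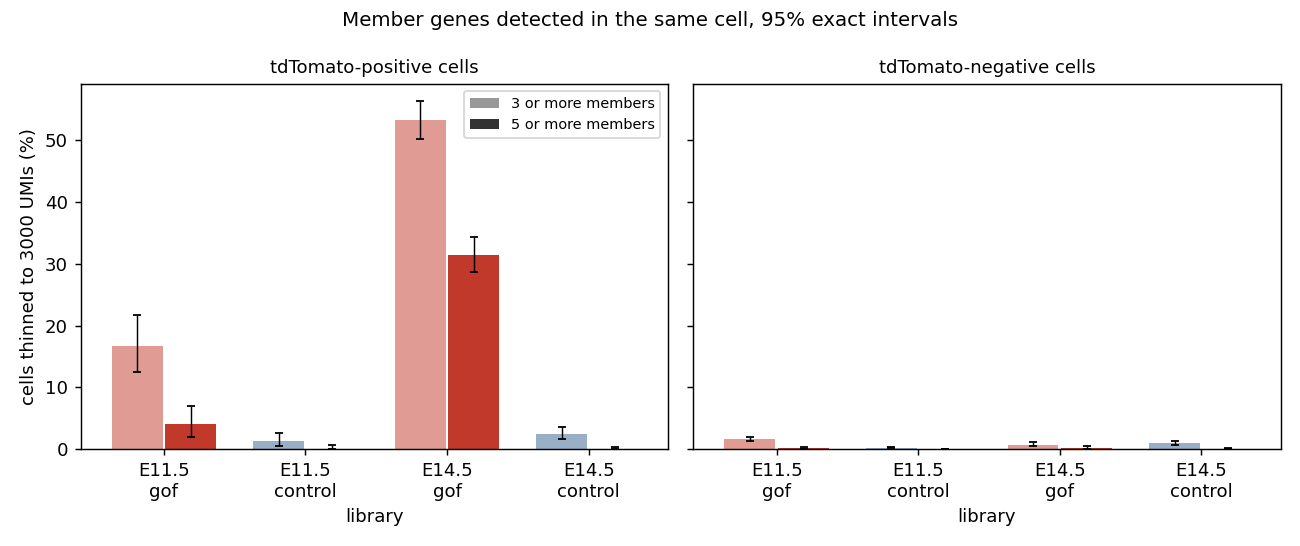
Share of cells, each thinned to 3000 UMIs, in which 3 or more (pale bars) or 5 or more (full bars) of the 10 genes were detected, in gof (red) and control (blue) libraries; error bars are exact 95% intervals. Among tdTomato-positive cells 53.3% of E14.5 gof and 2.44% of E14.5 control cells had 3 or more.

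Pairs of the genes shared cells to different degrees in E14.5 gof reporter cells. Armh4-positive cells had a Mybpc1 UMI in 81.2%, against 32.5% of Armh4-negative cells, and Mybpc1-positive cells had a Prkcb UMI in 63.6%, against 18.5% of the others. Of the 41 Pax3-positive cells, 95.1% had Mybpc1 and 85.4% had Armh4, against 44.7% and 26.9% of Pax3-negative cells. Pglyrp1 and Pax3 were found together no more than separately, with Pax3 in 4.04% of Pglyrp1-positive and 3.95% of Pglyrp1-negative cells. Prkcb was likewise in 42.4% of Pglyrp1-positive and 39.3% of Pglyrp1-negative cells. The genes therefore overlapped in part, with Pglyrp1 apart from Pax3 and Prkcb.

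Notum was itself gof-high, at 70.9 CPM in gof, against 1.05 CPM in control reporter cells at E11.5 and at 192 and 0.602 CPM at E14.5. In E14.5 gof reporter cells, 320 of 1036 thinned cells had a Notum UMI. Mybpc1 was in 75.9% of these and in 33.7% of the Notum-negative cells, and Armh4 in 59.4% and 15.8%. Aspscr1 was in 49.4% and 13.97%, Runx2 in 38.8% and 16.2%, and Tex15 in 57.8% and 22.6%. The difference was smaller for Prkcb, at 52.8% and 33.7%. Each of the 10 genes was more often detected in Notum-positive cells with separate intervals, down to Pax3 at 8.44% and 1.96%. After thinning to 1500 UMIs Pax3 no longer did, with a difference of -0.15 percentage points. None of the genes was confined to Notum-positive cells: Asic2 was in 42.2% of the Notum-negative ones.

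By summed CPM in unthinned cells, the E14.5 gof reporter cells with Notum (541 cells, median 15534 UMIs) and without it (502 cells, median 16660 UMIs) differed most, by ratio, in Pglyrp1 and Pax3. Pglyrp1 was at 236 CPM with Notum and 6.73 CPM without it, and Pax3 at 34.0 and 1.51 CPM. Armh4 was at 346 and 26.7 CPM, Mybpc1 at 899 and 121 CPM, Tex15 at 371 and 52.1 CPM, and Asic2 at 1409 and 479 CPM. The Notum-negative level of Armh4 lay close to the 27.0 CPM of control reporter cells, whereas the Notum-negative levels of Asic2 and Mybpc1 were above those of control reporter cells (146 and 12.3 CPM). Notum and the chosen genes are all gof-high in reporter cells, so the counts of calls that follow may come from the choice, and nothing is read from them. All 10 genes were called higher in Notum-positive cells, where 10.1% of 9920 genes were. At E11.5, 8 of 9 were, where 3.76% of genes were, and Asic2 was not. At that age 49 of 275 thinned cells had Notum. Mybpc1 was in 38.8% of them and in 9.73% of the rest, and Pax3 in 34.7% and 9.73%. In all, 5 of the 10 genes had separate intervals of their shares at E11.5, and Prkcb was in 2.04% of Notum-positive and 3.10% of Notum-negative cells. The count was 1 after thinning to 1500 UMIs and 8 without thinning, where Prkcb was more often detected with Notum, by 16.4 percentage points.

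**Figure D3:**
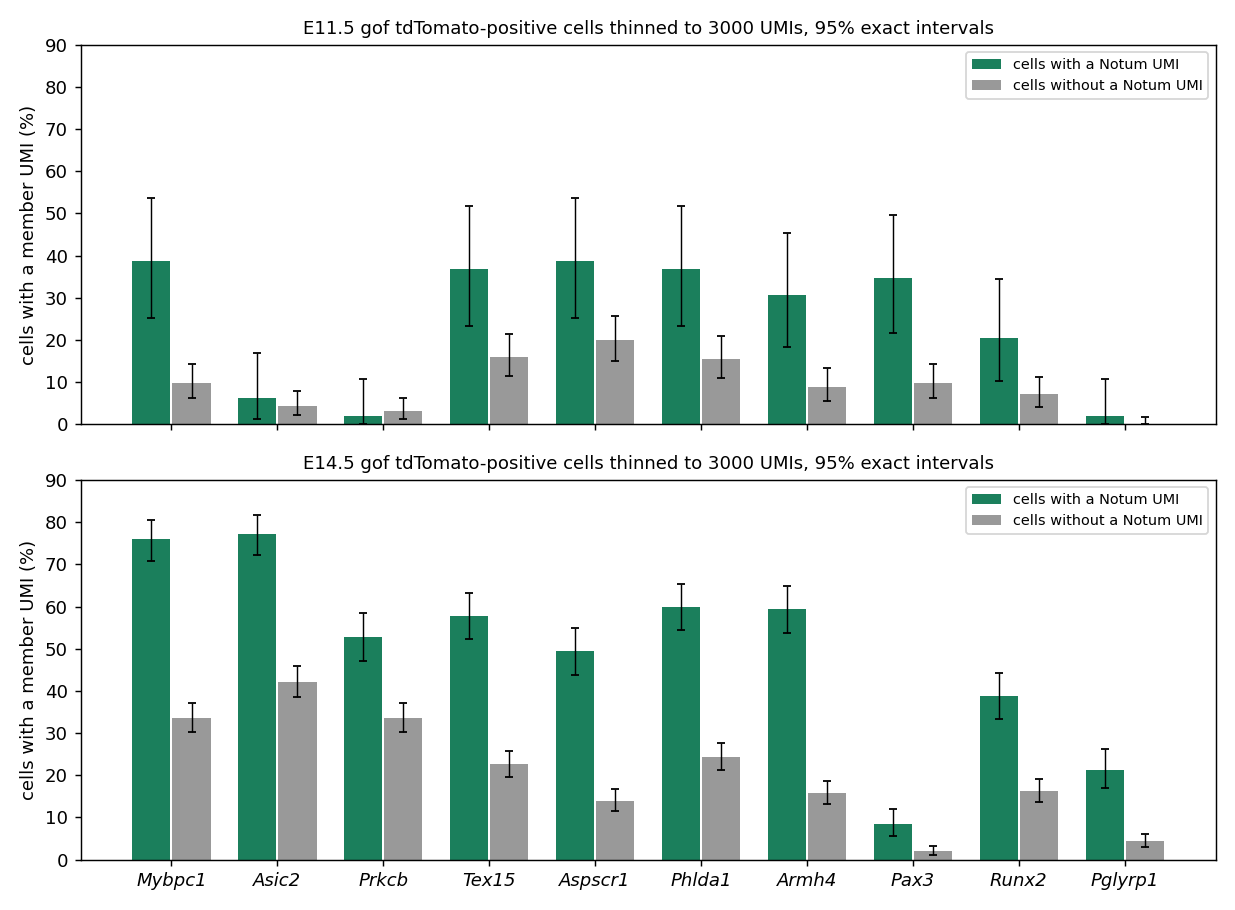
Share of gof tdTomato-positive cells with a UMI of each gene, among cells with (green) and without (grey) a Notum UMI, after thinning to 3000 UMIs; error bars are exact 95% intervals. At E14.5 the green bar is above the grey bar for each gene, from Asic2 (77.2% and 42.2%) to Pax3 (8.44% and 1.96%).

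Across the 1043 E14.5 gof reporter cells, which share 1 library, the Pearson correlation of log-normalised levels with Notum was highest for Aspscr1, at 0.66, Armh4, at 0.65, and Phlda1, at 0.63. It was lowest for Prkcb and Pax3, at 0.25 and 0.24. The correlations of the 10 genes with log depth lay between -0.19 (Mybpc1) and 0.05 (Pglyrp1). These values describe the cells of 1 library.

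Aspscr1 stands apart by position, since its nearest annotated protein-coding gene on the left is Notum. Notum (chr11:120653788-120661175, minus strand) and Aspscr1 (plus strand) are divergent, with 11797 bases between them. On its other side Aspscr1 is followed after 1494 bases by Cenpx, a centromere protein gene. Cenpx was at 218 CPM in gof, against 166 CPM in control reporter cells at E11.5 and at 131 and 73.6 CPM at E14.5. Neighbours of other genes were higher, lower or alike. Chpt1, a choline phosphotransferase gene 14205 bases from Mybpc1, was at 72.9 CPM in gof, against 41.5 CPM in control at E14.5, and Nap1l1, a histone chaperone gene 8135 bases from Phlda1, at 1250 and 540.1 CPM. Ppp2cb, a phosphatase subunit gene beside Tex15, was at 43.3 CPM in gof, against 71.4 CPM in control. The protein-coding gene 5530401A14Rik lies on the plus strand within Asic2; it was at 32.4 CPM in gof, against 0.1004 CPM in control reporter cells at E14.5. The sources used here do not say how strand was treated in counting, so reads of this gene and of Asic2 on the opposite strand could not be told apart with certainty. Supt3, which overlaps Runx2 on the opposite strand, was at 44.5 CPM in gof, against 44.7 CPM in control at E14.5.

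The windows from 250 bases before to 50 bases after the start site were read for the genes that RefSeq (GRCm38.p6) lists, which were 7 of the 10 with 10 windows. They were searched on both strands for 4 words of the Tcf and Lef core motif, which are CTTTG followed by AA, by AT, by TA or by TT. The words occurred in 1 of the 10 windows, that of Armh4, and 16.9% of 32851 RefSeq windows of the same length hold one. The Mybpc1 window is shown for the gene with the largest gof to control ratio at both ages, the first of the 3 Aspscr1 windows, at the annotated gene start, for the neighbour of Notum, and the Armh4 window for the match, which is in capitals (AACAAAG, the reverse complement of a word, starting 20 bases before the start site). Each is written 5' to 3' on the strand of the gene.
Mybpc1 (chr10:88605103-88605402, minus strand): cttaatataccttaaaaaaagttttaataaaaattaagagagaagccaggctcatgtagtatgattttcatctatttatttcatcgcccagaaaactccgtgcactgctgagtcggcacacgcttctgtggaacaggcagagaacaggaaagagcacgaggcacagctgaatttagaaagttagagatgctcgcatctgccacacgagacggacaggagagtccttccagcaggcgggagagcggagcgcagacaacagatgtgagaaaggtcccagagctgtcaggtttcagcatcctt
Aspscr1 (chr11:120672723-120673022, plus strand): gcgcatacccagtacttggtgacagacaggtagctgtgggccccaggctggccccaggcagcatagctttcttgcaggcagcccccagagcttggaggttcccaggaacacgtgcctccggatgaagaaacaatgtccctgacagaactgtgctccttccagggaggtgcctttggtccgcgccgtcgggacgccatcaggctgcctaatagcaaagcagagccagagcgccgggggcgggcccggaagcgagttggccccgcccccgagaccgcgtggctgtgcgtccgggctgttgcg
Armh4 (chr14:49783334-49783633, minus strand): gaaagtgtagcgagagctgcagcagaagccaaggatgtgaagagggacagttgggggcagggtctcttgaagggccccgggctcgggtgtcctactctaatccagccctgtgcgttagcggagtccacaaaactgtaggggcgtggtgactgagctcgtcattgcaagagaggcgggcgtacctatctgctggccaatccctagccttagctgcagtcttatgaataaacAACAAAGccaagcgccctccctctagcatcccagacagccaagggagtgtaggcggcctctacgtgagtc
A match is a description of the letters and not a binding site, and no match says only that the letters are not in this window.

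To see where the genes were expressed, cells were placed in marker gates by lists of known cell type genes, which left 39.0% of E14.5 gof and 30.2% of E14.5 control cells in no gate. Gates of at least 20 cells in both libraries were compared, and between 21.6% and 25.2% of the cells of a library lay near a gate limit. In E14.5 reporter cells 7 gates, counting cells in no gate as 1, gave 70 pairs of a gene and a gate, of which 48 were higher in gof by separate intervals and 5 lower. Among the 60 pairs with at least 10 CPM in either library, 47 were higher, where 12.6% of the pairs of all genes were, and 5 lower, where 16.8% were. The genes were chosen on the pooled levels of these same cells, so more pairs higher than among all genes follows from the choice. The pairs describe which gates held the higher levels, which were not uniform across them.

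The E14.5 gof reporter cells in no gate were 530 of 1043. By CPM this group was highest for Mybpc1 and Phlda1 alone. Asic2 and Prkcb were highest in the Cajal-Retzius gate, and Tex15, Aspscr1, Runx2 and Pglyrp1 in the choroid plexus gate. Armh4 and Pax3 were highest in the intermediate progenitor gate. For Phlda1, Armh4 and Pax3 the intervals of the highest group and the next overlapped. Sostdc1, Cdkn1a, Asic2, Prkcb and Sp5 headed the genes that set the no-gate cells of this library apart. In reporter cells of this group Mybpc1 was at 808 CPM in gof, against 24.7 CPM in control, Asic2 at 1335 and 103 CPM, and Prkcb at 366 and 16.5 CPM. Armh4 was at 270 CPM in gof, against 14.7 CPM in control, and Pglyrp1 at 172 and 1.83 CPM. Control had 138 reporter cells in no gate. All 10 genes were higher in gof in this group, and the share of all genes higher in this group alone is not given. Cells in no gate are a remainder and not a cell type, and they were unlike in the libraries. Reln was at 31.2 CPM in gof, against 276.5 CPM in control, and Ttr at 402 and 1692 CPM. Their part in the result was not tested.

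The intermediate progenitor gate, marked by Eomes and Neurog1 and holding 111 gof and 58 control reporter cells, also had all 10 genes higher in gof. Mybpc1 was at 745 CPM in gof, against 29.3 CPM in control, Asic2 at 987 and 12.1 CPM, and Armh4 at 296 and 14.1 CPM. The cells of the gate were unlike in the libraries: Eomes was at 218.5 CPM in gof, against 546 CPM in control, and Trp73 at 0.467 and 35.4 CPM, and their part in the result was not tested. In reporter-negative cells of the same gate 4 of the 10 genes, with no minimum CPM, were lower in gof, and 6 had overlapping intervals. Over all reporter-negative gates together, 18.7% of the pairs of all genes with at least 10 CPM were lower. That share covers other gates and has a minimum, so it is no direct background for this count. The 4 lower genes were Mybpc1, at 3.35 CPM in gof, against 21.4 CPM in control, Asic2, Phlda1 and Armh4. Within this gate of the gof library, Mybpc1 was thus at 745 CPM in reporter-positive and 3.35 CPM in reporter-negative cells.

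In the Cajal-Retzius gate, with 66 gof and 324 control reporter cells, Asic2 was at 1761 CPM in gof, against 34.1 CPM in control, and Prkcb at 491 and 40.4 CPM. Reln was at 584 CPM in gof, against 3992 CPM in control cells of this gate, and Trp73 at 71.8 and 335.9 CPM. Armh4 (26.1 and 43.2 CPM) and Aspscr1 (45.7 and 39.5 CPM) had overlapping intervals. In the choroid plexus gate, with 90 gof and 106 control reporter cells, 9 genes were higher in gof. Its cells were also unlike in the libraries, with Ttr at 19430 CPM in gof, against 92230 CPM in control, and Kcne2, another choroid plexus marker, at 25.2 and 831 CPM; their part in the result was not tested. Tex15 was at 422 CPM in gof, against 44.7 CPM in control, Aspscr1 at 222 and 30.1 CPM, Runx2 at 151 and 15.9 CPM, Pglyrp1 at 261 and 3.46 CPM, and Notum at 460 and 1.04 CPM. Pax3 was at 11.8 CPM in gof, against 12.8 CPM in control in this gate, with overlapping intervals. In the hem gate, with 78 gof and 295 control reporter cells, Mybpc1 was at 236 CPM in gof, against 3.78 CPM in control and Phlda1 at 123 and 36.7 CPM, while Asic2 was lower in gof, at 200.2 against 259 CPM.

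The pallial gates departed most from the pooled picture. In the pallial progenitor gate, with 63 gof and 52 control reporter cells, Mybpc1 was at 7.49 CPM in gof, against 91.6 CPM in control, and Asic2 at 17.7 and 42.1 CPM, so both were lower in gof. Runx2 was higher, at 15.0 CPM in gof, against 1.65 CPM in control, which is 2 UMIs, and the other 7 had overlapping intervals. The gof cells of this gate had Notum at 0.681 CPM, Sp5, another Wnt target, at 4.76 CPM and Axin2, a Wnt feedback inhibitor, at 30.6 CPM, where control cells of the gate had 0 UMIs of Notum, Sp5 at 91.6 CPM and Axin2 at 137 CPM. Sp5 and Axin2 were thus lower in gof in this gate, and their part in the result was not tested. In the pallial neuron gate, with 71 gof and 124 control cells, Phlda1 was at 16.3 CPM in gof, against 31.3 CPM in control and Armh4 at 39.7 and 61.8 CPM, both lower in gof, while Mybpc1, Asic2, Prkcb and Tex15 were higher in gof.

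**Figure D4:**
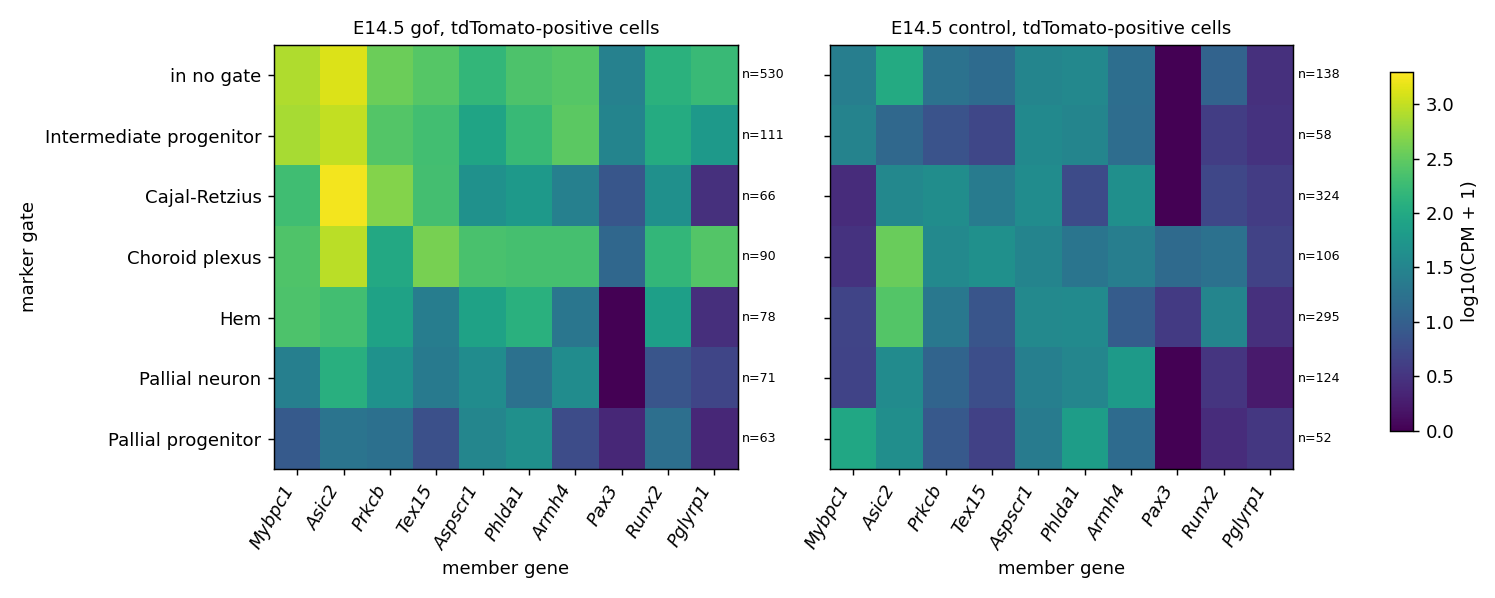
Level of each of the 10 genes, as log10 of CPM plus 1 (colour scale), in tdTomato-positive cells of each E14.5 marker gate (rows, with cell numbers beside them), gof on the left and control on the right. Cells in no gate and intermediate progenitor-gated cells are bright for most genes in gof, while control shows Asic2 in the choroid plexus and hem gates and Mybpc1 in the pallial progenitor gate.

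**Figure D5:**
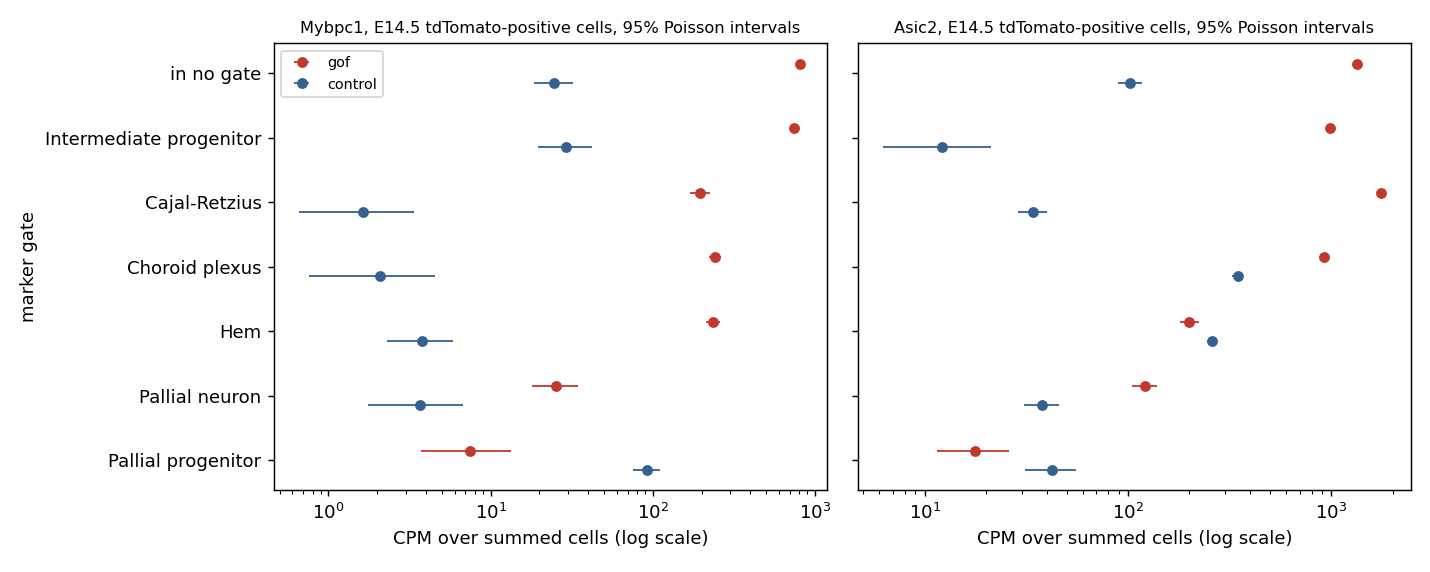
Mybpc1 (left) and Asic2 (right) in tdTomato-positive cells of each E14.5 marker gate for gof (red) and control (blue), in CPM on a log axis with 95% Poisson intervals. Mybpc1 is 7.49 CPM in gof, against 91.6 CPM in control in the pallial progenitor gate, and higher in gof in the other gates shown.

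At E11.5 the hem gate and the cells in no gate had enough reporter cells in both libraries. In the hem gate, with 81 gof and 250 control cells, Mybpc1 was at 32.0 CPM in gof, against 0.247 CPM in control, Aspscr1 at 75.8 and 20.3 CPM, Runx2 at 26.6 and 5.19 CPM, Phlda1 at 43.7 and 16.8 CPM, and Tex15 at 72.6 and 44.0 CPM. In cells in no gate Mybpc1 was at 104 CPM in gof, with 0 UMIs in control, Pax3 at 92.6 CPM in gof, against 30.6 CPM in control, and Armh4 at 77.9 and 30.2 CPM. Asic2, Prkcb and Pglyrp1 had overlapping intervals in both, and Armh4 and Pax3 in the hem gate. Reporter-negative gof cells carried some of the genes too: in the intermediate progenitor gate Mybpc1 was at 29.9 CPM in 243 gof cells, with 0 UMIs in 149 control cells, and Tex15 at 19.9 and 1.93 CPM.

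The control libraries held most of the genes in particular gates. Mybpc1 was at 91.6 CPM in 52 reporter-positive and 61.5 CPM in 1055 reporter-negative pallial progenitor-gated cells of the E14.5 control library, where it was among the 10 genes that set this gate apart. The gate's leading genes there also held histone genes and none of its own markers. Reporter-negative cells of the gate were at 6.48 CPM in 558 gof cells, against the 61.5 CPM in control, so Mybpc1 was lower in gof with and without tdTomato. Over reporter-negative cells at E14.5, 33 pairs of a gene and a gate reached 10 CPM. In these, 13 were lower in gof, where 18.7% of the pairs of all genes were, and 4 higher, where 10.8% were. Asic2 in control was highest in the choroid plexus gate, at 348 CPM in reporter-positive and 299 CPM in 29 reporter-negative cells, and next in the hem gate, at 259 and 202 CPM.

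In control, Pax3 at E11.5 was at 28.2 CPM in reporter-positive and 23.8 CPM in reporter-negative choroid plexus-gated cells and at 9.29 CPM in reporter-negative hem-gated cells. At E14.5 it was at 12.8 CPM in reporter-positive choroid plexus-gated cells and 2.65 CPM in hem-gated ones, with 0 UMIs in the 324 Cajal-Retzius-gated cells. Runx2 at E14.5 was highest in the hem gate, at 30.8 CPM in reporter-positive control cells, and was at 15.9 CPM in the choroid plexus gate. Tex15 was at 101 CPM in reporter-positive and 95.4 CPM in reporter-negative choroid plexus-gated control cells at E11.5, and at 44.7 CPM in reporter-positive ones at E14.5. Reporter-negative cells of the non-neural control gates gave a background for these levels, except for Tex15 at E14.5. At E11.5 it was 4.63 CPM (3.32 to 6.27) for Pax3 and 8.23 CPM (6.45 to 10.35) for Tex15, below the intervals of the choroid plexus gate for both. The Pax3 interval of reporter-negative hem-gated cells (6.35 to 13.1) lay just above it and overlapped that of erythroid-gated ones (3.69 to 8.73). At E14.5 it was 7.85 CPM (3.92 to 14.05) for Runx2, which was below the hem gate (26.3 to 35.9) and overlapped the choroid plexus gate (11.7 to 21.2). For Tex15 it was 41.4 CPM (31.4 to 53.5), which overlapped the choroid plexus gate (37.3 to 53.1). By thinned shares, the Pax3 share of 1.90% in choroid plexus-gated cells lay within the 3.03% that 0 of 99 cells allows. By summed counts, Pax3 in these cells was at 12.8 CPM (9.02 to 17.7), from 37 UMIs in 8 cells. Reporter-negative control cells of the mesenchymal or meningeal, pericyte and myeloid gates had 0 Pax3 UMIs at E14.5.

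Non-neural control cells held the highest control levels of other genes at E14.5. Tex15 was at 32.7 CPM in 54 gof, against 155.5 CPM in 35 control reporter-negative mesenchymal or meningeal-gated cells. Phlda1 was at 232 CPM in these gof cells, against 227 CPM in the control ones, and at 196 CPM in 26 pericyte-gated control cells. Prkcb was at 139 CPM in 24 gof, against 143.5 CPM in 25 control reporter-negative myeloid-gated cells, and at 132 CPM in the pericyte-gated control cells. Pglyrp1 was at 96.9 CPM over 14 gof, against 269 CPM over 11 control endothelial-gated cells of any reporter status, levels from few cells, and in reporter-negative ones at E11.5 at 7.89 CPM in 95 gof, against 32.8 CPM in 26 control cells. Among neural cells, Armh4 was highest in reporter-positive control cells in the pallial neuron gate, at 61.8 CPM. Reporter-negative cells of that gate were at 26.5 CPM in 1086 gof, against 55.5 CPM in 939 control cells. Aspscr1 had no such peak: in reporter-positive control cells at E14.5 its level was between 22.3 CPM in the pallial progenitor gate and 39.5 CPM in the Cajal-Retzius gate.

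The genes were set beside others of their families and tissues in reporter cells. Of 17 Wnt feedback and target genes tested at E14.5, 15 were called higher in gof and 1, Lgr5, lower, where 6.84% of all genes were higher; their median log2 ratio was 2.11. Wif1, a secreted Wnt inhibitor, was at 521 CPM in gof, against 15.6 CPM in control, Nkd1, an intracellular inhibitor, at 565 and 86.6 CPM, and Dkk4, another secreted inhibitor, at 30.0 CPM with 0 UMIs in control. At E11.5, 10 of 13 were higher and none lower, where 4.68% of all genes were higher and 5.66% lower. In the myosin and muscle list 3 of 14 genes reached 10 CPM at E14.5. Besides Mybpc1 these were Ttn, the giant sarcomere protein gene, at 19.0 CPM in gof, against 1.96 CPM in control, and Tnnt1, slow troponin T, at 17.2 and 4.52 CPM, both called higher. At E11.5 Myh3, embryonic myosin heavy chain, was called higher beside Mybpc1, at 10.3 CPM in gof, against 3.26 CPM in control. The muscle regulators Myod1 and Myf5 had 0 UMIs in reporter cells of all 4 libraries.

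Runx1, the family member of blood stem cells, was called higher in gof at both ages, at 11.2 against 3.26 CPM at E11.5 and 48.3 against 4.92 CPM at E14.5. In the osteoblast list Runx2 was the 1 gene called at either age among the 2 tested. Prkca, another conventional kinase C gene, was called higher at both ages, at 102 CPM in gof, against 66.3 CPM in control at E14.5, while Prkce was lower there, at 95.5 and 172 CPM. Phlda3 was lower at E14.5, at 15.1 CPM in gof, against 23.4 CPM in control, where Phlda1 was higher. In the neural crest and dorsal neural tube list 3 of 9 genes tested were called higher at E14.5 (Pax3, Zic1 and Ets1), where 6.84% of all genes were, and 3 lower (Msx1, Sox9 and Tfap2b), where 16.6% were, and the crest marker Foxd3 had 0 UMIs in reporter cells of all 4 libraries. In the germ cell list Tex14 was called higher together with Tex15 at E11.5, at 45.7 CPM in gof, against 24.5 CPM in control, and Tex15 alone at E14.5. Asic2 and Pglyrp1 were the 1 gene each of the 5 acid-sensing channel and the 4 peptidoglycan recognition genes to reach 10 CPM at E14.5. Of all listed genes, most were called higher in the Wnt list alone. Of the genes tested, most were also called higher in the muscle list (2 of 2 at E11.5 and 3 of 3 at E14.5) and the Runx list (2 of 3 at both ages). The same held for the germ cell list at E11.5 (2 of 2). Each of these lists holds a gene of the set, and lists with 1 gene tested are left aside.

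Genes with a sharper pattern than the set were also counted, with at least 20 CPM in gof and under 2 CPM in control reporter cells. There were 6 at E11.5, which were Mybpc1, Notum, Dkk1, Gm49361, Wnt6 and Arhgap30. At E14.5 there were 16 and none was among the 10 genes. The 10 with the highest gof level were Notum, Wnt6, Cryba2, Nfam1, Ttc23l, Prss56, 5530401A14Rik, Gad1, Pla2g5 and Dkk4, from 192 CPM in gof for Notum to 30.0 CPM for Dkk4. Cryba2, a crystallin gene, was at 66.2 CPM in gof with 2 UMIs in control.

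Likeness of levels was taken as the Pearson correlation of log2 of CPM plus 1 over 64 groups of library, reporter status and gate, which share libraries and depth, among 13870 genes. Tex15 was most like Bmp5, at 0.86, Fam81a and Bmp7, the first and last of which are BMP ligand genes. Pax3 was most like Krt8, at 0.80, Fgf8, a midline growth factor gene, and Smim22. Aspscr1 was most like Epp13, at 0.78, Pla2g5 and its neighbour Notum, at 0.77. Mybpc1 was most like Wif1, at 0.78, Mt3 and Gsg1l, and Asic2 was most like Aopep, at 0.78, Mt3 and Clcn3. Runx2 was most like Pla2g5, at 0.74, Phlda1 like Tns1, at 0.79, Armh4 like Clcn3, at 0.71, and Pglyrp1 like Cdx1, at 0.75. Prkcb had the weakest best match, Nfam1 at 0.69.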

How the data were processed

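Single-cell libraries of the telencephalic midline were sequenced after 10x Chromium 3' v3.1 preparation, 1 library for each age and genotype. The authors deposited raw UMI counts per gene and barcode, for which the submitters' processing notes name Cell Ranger 7.1.0 and the build mm10; the sources used here do not give the gene annotation or the strand setting. Ages follow the series' design text, since sample titles shorten them.

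A barcode was kept if it had 1000 genes or more and no more than 10% of its UMIs from mitochondrial genes. The highest Scrublet scores (scanpy 1.11.5, Python 3.11.15, seed 1) were removed at 0.8% per 1000 barcodes, since Scrublet's own threshold called 0 doublets in both E11.5 libraries. Counts were summed over cells as CPM with exact Poisson intervals. Ratios of CPM have exact binomial intervals, and shares exact Clopper-Pearson ones, at 95%. The percent that 0 cells is said to allow is 3 cells over the cells read, which is below the upper end of the exact interval. Ambient RNA was not removed. Library totals were 59594082 and 78732126 UMIs at E11.5 (gof, control) and 93988703 and 113821989 at E14.5. Shares were read after thinning to 3000 UMIs, which left out 655, 103, 271 and 270 cells.

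A gate needed a mean marker z score of at least 0.5, a margin of 0.25 over the next list and 3 detected markers; these limits were set after the data were seen. In no gate of 20 or more cells did more markers of another class than of its own stand among its 10 leading genes. A gate with no markers of any class among these genes also passes, so the check does not establish what its cells are. The E14.5 control pallial progenitor gate had none of its own markers there. Positions and neighbours come from GENCODE M21 (GRCm38) and promoters from RefSeq. The call rule was tested on simulated data, but no outcome is given here, so its error rate is not known from this report. The members and the gene lists were chosen with earlier results of these data known. Genes named beside the members are Notum, Lmx1a, Ctnnb1, gene neighbours, the 3 most alike genes, list genes and the 10 highest genes of the numeric pattern. Reln, Trp73, Ttr, Kcne2, Eomes, Sp5 and Axin2 are named as markers of the populations.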

Additional observations from a re-analysis of the deposited data

Results flagged for a closer look

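At E14.5 Mybpc1 differed in opposite directions in the tdTomato classes, with a log2 ratio of gof over control of 5.27 in positive and -1.83 in negative cells. Armh4 did likewise, at 2.75 in positive and -0.62 in negative cells. The difference between the classes was not tested, since each comes from the same pair of libraries.

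Some genes that were higher in gof over all E14.5 reporter cells were lower in single marker gates. In the pallial progenitor gate the log2 ratio was -3.45 for Mybpc1 and -1.21 for Asic2, in the hem gate it was -0.37 for Asic2, and in the pallial neuron gate it was -0.90 for Phlda1 and -0.63 for Armh4. These differences between gates were not tested.

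Cells with 1 tdTomato UMI entered neither the positive nor the negative class. In them 6 of the genes were higher in gof at E11.5 and 2 at E14.5. Mybpc1 was at 22.3 CPM in gof, against 0.231 CPM in control at E11.5, and at 18.5 and 35.4 CPM at E14.5.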

How the results depend on the processing

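The number of the 10 genes higher in gof reporter cells stayed within 1.5 times its value at both ages under each of the 14 alternatives tried (other tdTomato limits, barcode and doublet filters, totals, pseudocounts, minimum CPM, left-out gates and barcodes). Of 280 log2 ratios of single genes, 274 kept direction and call. The other 6 were all Prkcb at E11.5, which lost its call with log2 ratios from 0.41 to 0.69, so that call depends on these settings. The number of all genes higher by at least 8-fold depended more on the scale: at E11.5 it was 12, with 22 when haemoglobin, mitochondrial and ribosomal genes left the total, 21 as a mean of per-cell CPM, 19 with a pseudocount of 0.1 CPM and 5 with one of 5 CPM; at E14.5 it was 52, with 29 at 1 or more tdTomato UMIs and 16 with a pseudocount of 5 CPM. Without a minimum CPM, 660 genes at E11.5 and 1216 at E14.5 were higher. Co-detection with Notum at E11.5 rested on few cells: 5 of the 10 genes had separate intervals, 1 after thinning to 1500 UMIs, 8 without thinning and 8 with 2 or more unthinned Notum UMIs. Prkcb at E11.5 turned from fewer to more Notum-positive cells without thinning (16.4 percentage points) and with 2 or more Notum UMIs (17.2), and Pax3 at E14.5 was at -0.15 percentage points after thinning to 1500 UMIs. The cause was not tested. Gate counts stayed within 1.5 times under both other gate rules.

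No paired analysis was possible because each group is 1 library. For the same reason no library was left out. At E11.5 Pglyrp1 rested on 8 UMIs in gof and 16 UMIs in control reporter cells, and detection shares move with the depth to which cells are thinned.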
